A study of Mus musculus with 14 samples.

Results

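The 9 genes described here encode the enzymes that move single carbons on folate in the cytosol and in mitochondria: Shmt1, Mthfd1 and Aldh1l1 (cytosolic), Shmt2, Mthfd2, Mthfd2l, Mthfd1l and Aldh1l2 (mitochondrial), and Tyms (cytosolic and nuclear). They were taken by name, with earlier results of these data known, and are 9 of the 53700 genes in the deposited tables. Poly-A RNA was sequenced in 14 libraries of NSPCs from adult mouse brain (neural stem and progenitor cells, cultured cells that can divide and give rise to neurons and glia), strain C57BL/6. Quiescent NSPCs were treated with BMP4, a signalling protein that holds such cultures out of the cell cycle (4 libraries), and their comparison group was proliferating NSPCs kept in the growth factors FGF and EGF (4 libraries). Yme1l KO NSPCs received an adeno-associated virus carrying Cre-GFP (3 libraries), and GFP control NSPCs received a GFP adeno-associated virus (3 libraries). Both virus groups were kept in FGF and EGF. Yme1l1 encodes a protease of the mitochondrial inner membrane.

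In the labels the KO libraries too are of wild-type mouse, and the allele that Cre acts on is not named. It is also not stated if replicates came from different animals or culture dishes, so that p-values reflect how these libraries scatter, possibly for technical reasons only. The target was read first: Yme1l1 had 25.7, 25.6 and 22.9 CPM (counts scaled to library size) in the KO libraries, against 135, 124 and 121 CPM in the GFP control libraries, a log2 fold change of -2.36. In the other table, whose labels name no virus, Yme1l1 was lower still, at 3.91 to 11.1 CPM in quiescent and 2.18 to 4.77 CPM in proliferating libraries. Its level can therefore be read as a check of the labels only within the table of the virus groups. Library totals were 6475092 to 8797741 counts in quiescent, 8331995 to 8992697 in proliferating, 9053122 to 9490735 in KO and 9226070 to 10320727 in GFP control libraries. Both comparisons moved much of the transcriptome: 65.4% of 12245 tested genes were called in quiescent against proliferating cells and 51.6% of 12625 in KO against GFP control cells (edgeR, adjusted p under 0.05). Quiescent replicate 2 stood apart by its trend with GC content, -0.348 log2 units for each 10% of GC against -0.0369 to 0.0314 in the other quiescent libraries, and KO replicate 3 lay at -41.0 on the first principal component, against -21.0 and -18.6 for the other KO libraries. The summed level of 14 NSPC markers was 5680 to 6720 TPM (the deposited level per transcript length) in quiescent, 5600 to 5850 in proliferating, 3350 to 3800 in KO and 5030 to 5230 in GFP control libraries, with none of the 14 at 0. The members moved both ways: of 13 tested, 3 rose and 7 fell in quiescent cells (median log2 fold change -0.24), among them Fabp7 (0.60, adjusted p = 0.000605, edgeR) and Egfr (-1.77, adjusted p = 5e-11, edgeR), and 2 rose and 6 fell in KO cells (median -0.04), among them Sox9 (0.29, adjusted p = 0.00185, edgeR) and Hes5 (-2.61, adjusted p = 5.83e-05, edgeR). Over all tested genes, 29.9% rose and 35.5% fell in quiescent cells, and 25.4% rose and 26.2% fell in KO cells. Hes5 was a low gene in the virus groups, at 0.434 ± 0.0958 CPM in KO and 2.71 ± 0.642 CPM in GFP control cells (SD). The abundant Fabp7 and Vim were among the falls in KO cells (-0.89 and -0.37, adjusted p = 0.000205 and 2.13e-05, edgeR). In such bulk samples, fewer cells of a type and less RNA per cell cannot be told apart.

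Folate carries carbon units taken mostly from serine. In mitochondria, Shmt2 moves a carbon from serine to folate, Mthfd2 or Mthfd2l oxidises it, and Mthfd1l releases it as formate, which leaves for the cytosol. There Mthfd1 loads formate back onto folate for purine synthesis, for the methionine cycle and for Tyms, which makes the thymidylate of DNA. Shmt1 runs the serine step in the cytosol, and Aldh1l1 and Aldh1l2 end the route by oxidising formyl-folate to carbon dioxide with the making of NADPH. Aldh1l1 is also widely used as a marker of astrocytes.

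In the deposited GRCm39 annotation, all 9 are protein-coding genes. Shmt1 (ENSMUSG00000020534) lies on the minus strand of chromosome 11 at 60678930 to 60702544, and Shmt2 (ENSMUSG00000025403) on the minus strand of chromosome 10 at 127352992 to 127358313. Mthfd1 (ENSMUSG00000021048) spans 76302072 to 76366577 on the plus strand of chromosome 12. Mthfd1l (ENSMUSG00000040675) spans 3923118 to 4117081 on the plus strand of chromosome 10. Mthfd2 (ENSMUSG00000005667) is at 83282673 to 83302890 on the minus strand of chromosome 6 and Mthfd2l (ENSMUSG00000029376) at 91078976 to 91169227 on the plus strand of chromosome 5. Aldh1l1 (ENSMUSG00000030088) is at 90463409 to 90577185 on the plus strand of chromosome 6, Aldh1l2 (ENSMUSG00000020256) at 83323314 to 83370004 on the minus strand of chromosome 10, and Tyms (ENSMUSG00000025747) at 30263200 to 30278615 on the minus strand of chromosome 5.

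Promoter windows from RefSeq (build GRCm38.p6, 250 bases before to 50 after the gene's start) were matched for 8 of the 9 genes. Those of 4 enzymes of different steps that fell in both comparisons described below are shown. Shmt1 and Mthfd1l also fell in both, and their windows are not shown. Capitals mark matches, on either strand, to the letters searched: TTTNNCGC (a loosened form of the E2F site, where N is any base), GGCGGGAA (another form, which can overlap it), CACGTG (E-box), CCAAT (a common promoter box, printed as its complement where it lies on the other strand) and TGATGNAA (the element bound by ATF4).
Tyms, chr5:30073576-30073875, minus strand: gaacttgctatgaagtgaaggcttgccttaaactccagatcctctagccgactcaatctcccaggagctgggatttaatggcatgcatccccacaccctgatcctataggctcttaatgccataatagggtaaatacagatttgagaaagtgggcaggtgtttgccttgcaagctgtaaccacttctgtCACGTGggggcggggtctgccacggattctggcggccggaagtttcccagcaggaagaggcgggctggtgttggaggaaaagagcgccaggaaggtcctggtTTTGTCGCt
Shmt2, chr10:127522395-127522694, minus strand: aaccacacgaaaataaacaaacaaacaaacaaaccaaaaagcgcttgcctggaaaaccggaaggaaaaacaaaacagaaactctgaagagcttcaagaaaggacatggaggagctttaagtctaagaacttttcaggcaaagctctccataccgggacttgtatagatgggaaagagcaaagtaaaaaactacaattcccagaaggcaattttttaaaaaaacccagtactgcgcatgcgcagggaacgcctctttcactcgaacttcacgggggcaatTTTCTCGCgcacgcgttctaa
Mthfd1, chr12:76254982-76255281, plus strand: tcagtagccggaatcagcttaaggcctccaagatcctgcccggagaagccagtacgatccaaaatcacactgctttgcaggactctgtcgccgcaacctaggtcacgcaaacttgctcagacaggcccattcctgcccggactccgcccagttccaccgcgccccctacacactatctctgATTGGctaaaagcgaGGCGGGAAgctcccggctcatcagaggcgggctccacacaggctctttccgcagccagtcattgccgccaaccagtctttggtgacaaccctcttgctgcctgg
Mthfd2, chr6:83317555-83317854, minus strand: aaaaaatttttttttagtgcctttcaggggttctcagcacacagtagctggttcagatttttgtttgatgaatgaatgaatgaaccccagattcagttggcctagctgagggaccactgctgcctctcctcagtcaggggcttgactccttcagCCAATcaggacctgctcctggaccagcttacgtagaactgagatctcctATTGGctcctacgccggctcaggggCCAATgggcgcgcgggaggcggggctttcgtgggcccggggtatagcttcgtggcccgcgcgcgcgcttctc
The Tyms window held TTTNNCGC at +41 from the start and CACGTG at -61, and the Shmt2 window held TTTNNCGC at +29. Mthfd1 held GGCGGGAA at -54 and a CCAAT box at -69, and Mthfd2 held 3 CCAAT boxes at -96, -47 and -22. Of the other windows, Shmt1 had 1 CCAAT box, Aldh1l1 had 2, and neither Mthfd1l nor Mthfd2l had a match. The letters TGATGNAA were in none of the 8 windows. Among all 32851 promoter windows of this length, 5.17% held TTTNNCGC, 2.19% GGCGGGAA, 7.15% CACGTG, 37.4% CCAAT and 3.97% TGATGNAA. A match describes letters in the window and is not evidence of binding.

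In quiescent cells, 8 of the 9 folate enzymes were lower than in proliferating cells and 1, Aldh1l2, was higher. All 9 passed the filter on low counts and the test (edgeR quasi-likelihood test, Benjamini-Hochberg adjusted p under 0.05), where 35.5% of all tested genes were called lower and 29.9% higher. The median log2 fold change of the 9 was -1.11, against -0.014 for all tested genes. In 6 of them the fall was at least 2-fold (10.6% of all tested genes), and Aldh1l2 rose by at least 2-fold (10.1%). The quiescent and proliferating libraries did not overlap for any of the 9, with 8 lower and 1 higher in quiescent libraries (33.2% and 26.4% of tested genes, 59.7% in all). Without quiescent replicate 2 the counts were again 8 lower and 1 higher.

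In KO cells, 6 of the 9 enzymes were lower than in GFP control cells, 1 was higher, and Mthfd2l and Aldh1l2 did not pass the test. Of all tested genes, 26.2% were called lower and 25.4% higher. The median log2 fold change of the 9 was -0.843, against 0.002 for all tested genes. The only fall of at least 2-fold was that of Shmt2 (2.07% of tested genes fell that far), and no enzyme rose as much (3.16%). KO and GFP control libraries did not overlap for 8 enzymes, with 7 lower and 1 higher in KO libraries (30.8% and 30.5% of tested genes, 61.4% in all). Without KO replicate 3 the counts were again 6 lower and 1 higher.

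**Figure D1:**
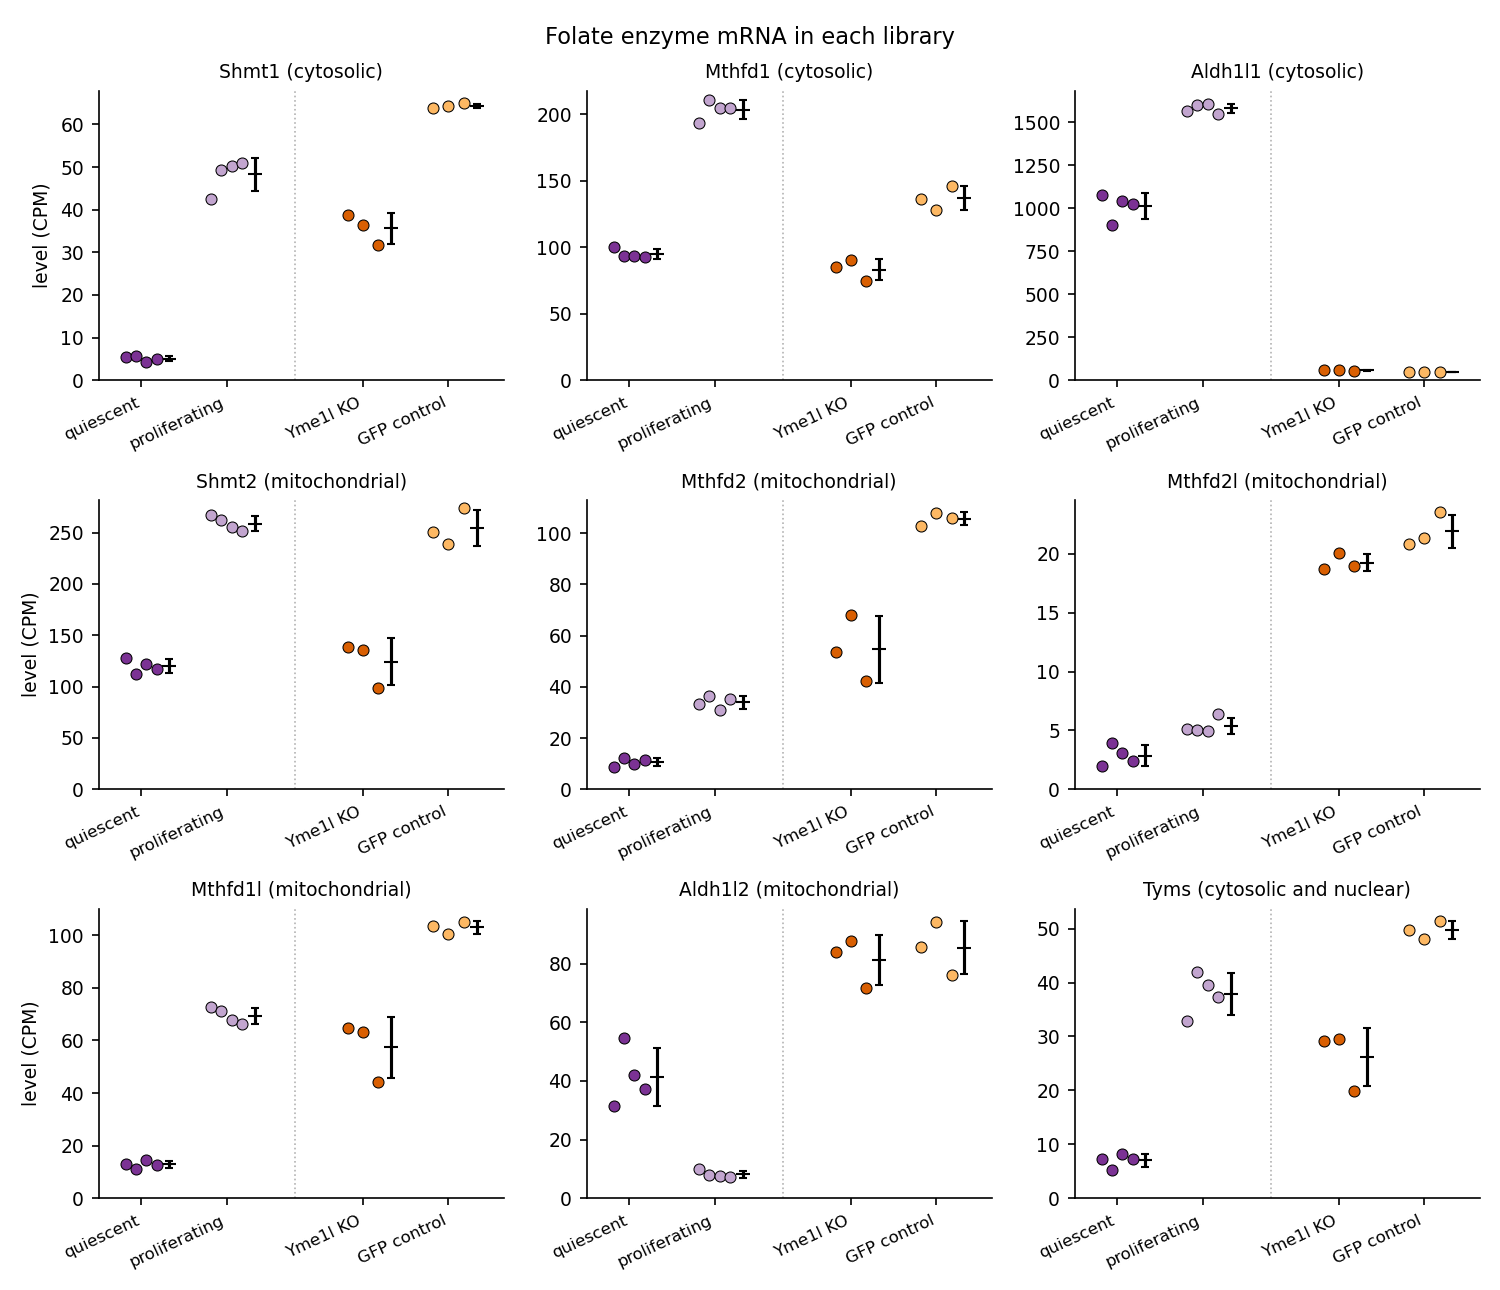
Level of each folate enzyme (y axis, CPM, each panel with its own scale from 0) in every library of quiescent, proliferating, Yme1l KO and GFP control NSPCs. Points are libraries and bars are the mean ± SD. The dotted line parts the tables, which were quantified separately. Aldh1l2 is the only enzyme whose quiescent libraries lie above the proliferating ones.

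The serine step differed between the compartments in quiescent cells. Shmt1, the cytosolic serine hydroxymethyltransferase, had 5.50, 5.61, 4.23 and 5.02 CPM in quiescent libraries, against 42.6, 49.2, 50.2 and 51.0 CPM in proliferating libraries. Every quiescent library was far under every proliferating one, and the fall of 9.40-fold (log2 fold change -3.23 ± 0.11 SE, adjusted p = 6.55e-13, edgeR) was the steepest of the 9. Only 26 to 48 counts stood behind each quiescent value. In KO libraries Shmt1 had 38.7, 36.5 and 31.7 CPM, against 63.9, 64.2 and 64.9 CPM in GFP control libraries. All KO libraries lay under all controls, at a log2 fold change of -0.85 ± 0.08 (SE, adjusted p = 1.62e-06, edgeR).

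Shmt2, the mitochondrial form, fell to 128, 113, 122 and 118 CPM in quiescent libraries, against 267, 262, 255 and 251 CPM in proliferating libraries. The groups were well apart and each was tight, with a log2 fold change of -1.11 ± 0.05 (SE, adjusted p = 1.24e-11, edgeR). Shmt2 had 139, 136 and 98.3 CPM in KO libraries, against 251, 239 and 273 CPM in GFP control libraries. KO replicate 3 was the lowest and the groups did not overlap, at -1.03 ± 0.13 (SE, adjusted p = 0.000858, edgeR). Shmt2 was the only one of the 9 whose fold change did not differ detectably between the comparisons: the KO effect minus the quiescence effect was 0.03 on the log2 scale, with a 95% interval of -0.27 to 0.32 (adjusted p = 0.893, edgeR).

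The next mitochondrial step is shared by Mthfd2, a dehydrogenase and cyclohydrolase known for high levels in embryonic and dividing cells, and its relative Mthfd2l. Mthfd2 had 8.73, 12.4, 9.93 and 11.6 CPM in quiescent libraries, against 33.4, 36.5, 30.8 and 35.2 CPM in proliferating libraries. The highest quiescent library was far under the lowest proliferating one (log2 fold change -1.66 ± 0.11 SE, adjusted p = 2.94e-09, edgeR). In KO libraries Mthfd2 had 53.7, 68.0 and 42.1 CPM, against 103, 108 and 106 CPM in GFP control libraries. KO libraries were all lower and more spread than the controls, at -0.95 ± 0.15 (SE, adjusted p = 0.00204, edgeR).

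Mthfd2l was a low gene in the first pair of groups, with 1.94, 3.97, 3.09 and 2.37 CPM in quiescent libraries, against 5.17, 5.08, 4.99 and 6.43 CPM in proliferating libraries. The quiescent values rest on 12 to 34 counts each, and the highest is that of replicate 2. The groups did not overlap, at -0.91 ± 0.25 (SE, adjusted p = 0.00422, edgeR). Mthfd2l had 18.7, 20.1 and 19.0 CPM in KO libraries, against 20.9, 21.3 and 23.6 CPM in GFP control libraries. The KO libraries were all slightly lower, but the difference of -0.19 did not pass the test (95% interval -0.39 to 0.02, adjusted p = 0.115, edgeR), and the authors' deposited table gives -0.004 for it (adjusted p = 0.987).

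Mthfd1l, which completes the mitochondrial route by releasing formate, had 12.9, 11.3, 14.7 and 12.8 CPM in quiescent libraries, against 72.6, 71.1, 67.7 and 66.1 CPM in proliferating libraries. Its fall of 5.39-fold (log2 fold change -2.43 ± 0.08 SE, adjusted p = 5.81e-13, edgeR) was the steepest among the mitochondrial enzymes. In KO libraries Mthfd1l had 64.8, 63.1 and 44.1 CPM, against 104, 100.3 and 105 CPM in GFP control libraries. KO replicate 3 was again the lowest, and the groups did not overlap (-0.84 ± 0.13 SE, adjusted p = 0.000775, edgeR).

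Mthfd1, the trifunctional cytosolic enzyme that takes up formate, averaged 95.1 ± 3.68 CPM in quiescent cells and 203 ± 7.33 CPM in proliferating cells (SD, n = 4 each). The quiescent libraries ran from 92.5 to 100.5 CPM and the proliferating ones from 193 to 211 CPM, a log2 fold change of -1.10 ± 0.05 (SE, adjusted p = 1.42e-11, edgeR). Mthfd1 had 85.4, 90.0 and 74.3 CPM in KO libraries, against 136, 128 and 146 CPM in GFP control libraries. The fall in KO cells was -0.72 ± 0.07 (SE, adjusted p = 3.93e-06, edgeR), the smallest of the 6 falls called there.

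Tyms, which methylates deoxyuridylate to thymidylate and is a textbook gene of S phase, had 7.27, 5.26, 8.30 and 7.26 CPM in quiescent libraries, against 32.8, 42.0, 39.5 and 37.3 CPM in proliferating libraries. The groups were widely apart, at -2.45 ± 0.13 (SE, adjusted p = 1.41e-10, edgeR). In KO libraries Tyms had 29.1, 29.6 and 19.9 CPM, against 49.8, 48.1 and 51.4 CPM in GFP control libraries. All KO libraries were lower (-0.92 ± 0.12 SE, adjusted p = 4.96e-05, edgeR). The pseudogene Tyms-ps had no counts except 2 in KO replicate 3.

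Of the enzymes that oxidise formyl-folate, Aldh1l1 fell in quiescent cells and rose in KO cells, and Aldh1l2 rose in quiescent cells. Aldh1l1 was the most abundant of the 9 in the first table, with 1081, 906, 1045 and 1027 CPM in quiescent libraries, against 1568, 1600.0, 1607 and 1551 CPM in proliferating libraries. Quiescent libraries were all lower, by 1.56-fold (log2 fold change -0.64 ± 0.05 SE, adjusted p = 1.04e-08, edgeR), the smallest of the 8 falls. In KO libraries Aldh1l1 had 57.4, 57.8 and 56.4 CPM, against 48.1, 45.5 and 47.3 CPM in GFP control libraries. It was the 1 enzyme that rose in KO cells, by 0.28 ± 0.06 on the log2 scale (SE, adjusted p = 0.00188, edgeR), with tight groups that did not overlap.

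Aldh1l2, the mitochondrial counterpart, had 31.5, 54.8, 42.2 and 37.4 CPM in quiescent libraries, against 10.02, 7.84, 7.60 and 7.12 CPM in proliferating libraries. Every quiescent library was higher, by 5.10-fold (log2 fold change 2.35 ± 0.18 SE, adjusted p = 2.27e-07, edgeR). Replicate 2, the library with the deviating GC trend, was the highest, and without it the log2 fold change was 2.26. Aldh1l2 had 84.1, 87.9 and 71.7 CPM in KO libraries, against 85.8, 94.2 and 76.2 CPM in GFP control libraries. The groups overlapped, and the difference of -0.07 did not pass the test (95% interval -0.26 to 0.12, adjusted p = 0.540, edgeR).

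**Figure D2:**
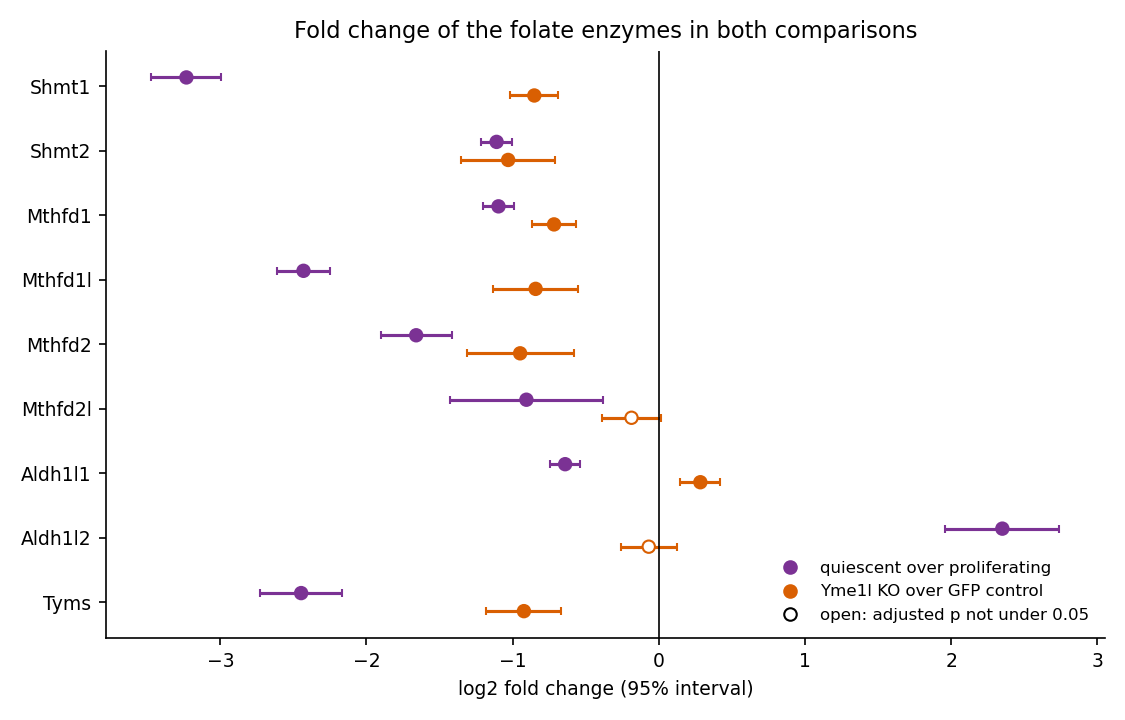
Log2 fold change (x axis) of each folate enzyme in quiescent over proliferating cells (purple) and in Yme1l KO over GFP control cells (orange), with 95% intervals from the edgeR fit and open points where the adjusted p was not under 0.05. The quiescent values run from -3.23 for Shmt1 to 2.35 for Aldh1l2, and the KO values from -1.03 for Shmt2 to 0.28 for Aldh1l1.

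The fold changes of the comparisons were then set against each other in 1 fit over the 14 libraries, which share no sample between the comparisons. This fit scaled all 14 libraries together, so that its differences deviate slightly from those of the fold changes quoted above. The KO effect minus the quiescence effect was called for 8 of the 9 enzymes, 7 with a positive and 1 with a negative difference (38.9% of all tested genes were called, 21% positive and 18% negative). A positive difference means that the KO value was less negative or more positive than the quiescent one. Shmt1 gave 2.33 (adjusted p = 1.08e-10, edgeR), Mthfd1l 1.54 (adjusted p = 3.1e-07, edgeR) and Tyms 1.48 (adjusted p = 9.05e-06, edgeR) on the log2 scale. These 3 had the steepest falls in quiescent cells and falls of 0.84 to 0.92 in size in KO cells.

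For Aldh1l1 the difference was 0.87 (adjusted p = 1.12e-07, edgeR), with a fall in quiescent and a rise in KO cells. Aldh1l2 had the only negative difference, -2.47 (adjusted p = 3.68e-07, edgeR), with a rise in quiescent cells and no called change in KO cells. Mthfd2 and Mthfd2l each gave 0.66 (adjusted p = 0.0123 and 0.0269, edgeR) and Mthfd1 0.33 (adjusted p = 0.0115, edgeR). The calls for Mthfd1 and Mthfd2l did not hold under RLE normalisation (0.23, adjusted p = 0.0615, and 0.56, adjusted p = 0.0554), and that for Mthfd2l also without any one of 6 single libraries (0.53 to 0.64, adjusted p = 0.0516 to 0.071): quiescent replicates 1 and 4, proliferating replicate 5, KO replicate 2, and GFP control replicates 1 and 2.

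Levels between genes were compared in TPM within each table. In quiescent cells the order was Aldh1l1 (595 ± 37.9 TPM), Shmt2 (98.5 ± 2.86), Mthfd1 (54.2 ± 1.90), then Aldh1l2 (13.0 ± 3.50), Tyms (12.5 ± 4.49) and Mthfd2 (10.4 ± 2.38), and last Mthfd1l (6.25 ± 0.573), Mthfd2l (4.68 ± 2.07) and Shmt1 (4.67 ± 1.75; SD, n = 4). In proliferating cells it was Aldh1l1 (908 ± 14.1 TPM), Shmt2 (217 ± 5.79), Mthfd1 (115 ± 1.83), Tyms (81.6 ± 14.3), Shmt1 (43.5 ± 4.44), Mthfd1l (33.3 ± 1.91), Mthfd2 (30.0 ± 2.27), Mthfd2l (10.4 ± 3.59) and Aldh1l2 (2.61 ± 0.337; SD, n = 4). Among neighbours, the quiescent libraries overlapped within Aldh1l2, Tyms and Mthfd2 and within Mthfd1l, Mthfd2l and Shmt1, and the proliferating libraries overlapped for Mthfd1l and Mthfd2. Shmt1 was thus the fifth of the 9 in proliferating cells and among the lowest in quiescent cells, and Aldh1l2 the lowest in proliferating cells.

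In the KO cells Shmt2 led with 110.2 ± 20.7 TPM, followed by Mthfd1 (51.0 ± 3.11), Mthfd2 (51.0 ± 11.3), Tyms (40.2 ± 10.8), Aldh1l1 (35.2 ± 0.984), Shmt1 (31.3 ± 8.07), Mthfd1l (29.0 ± 5.89), Mthfd2l (26.7 ± 3.23) and Aldh1l2 (25.7 ± 2.72; SD, n = 3). In GFP control cells Shmt2 led with 228 ± 17.4 TPM, followed by Mthfd2 (100.1 ± 2.06), Tyms (94.1 ± 4.20), Mthfd1 (82.3 ± 6.17), Shmt1 (53.1 ± 3.53), Mthfd1l (52.4 ± 0.881), Aldh1l1 (28.5 ± 0.332), Aldh1l2 (28.1 ± 2.20) and Mthfd2l (26.7 ± 4.09; SD, n = 3). Every neighbouring pair below Shmt2 overlapped in the KO libraries. In the GFP control libraries Mthfd2 overlapped Tyms, Shmt1 overlapped Mthfd1l, and the last 3 overlapped each other. Tyms, Mthfd2l and Shmt1 levels in TPM lean on the split between isoforms: the main coding transcript of Tyms took a mean of 57.2%, 40.2%, 47.0% and 37.6% of the gene's counts in quiescent, proliferating, KO and GFP control libraries, with most of the rest on forms annotated as nonsense-mediated decay or retained intron. The main coding transcript of Shmt1 took 60.9% to 100% of its counts in quiescent libraries. There Shmt1 ran from 4.23 to 5.61 CPM but from 2.66 to 6.81 TPM. By contrast, 1 transcript held 98.3% to 99.7% of the counts of Mthfd2 in the group means, 76.9% to 80.7% of those of Shmt2 and 80.8% to 83.0% of those of Aldh1l1.

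The balance of mitochondrial to cytosolic enzyme was described as a ratio of TPM in each library. Shmt2 over Shmt1 was 19.5, 14.4, 37.8 and 23.4 in quiescent libraries, against 5.59, 4.33, 5.13 and 5.07 in proliferating libraries. Its spread among quiescent libraries includes the isoform split of Shmt1. The ratio was thus higher in all quiescent libraries, while for Mthfd1l over Mthfd1 it was lower, at 0.106, 0.108, 0.136 and 0.113 in quiescent libraries, against 0.318, 0.288, 0.278 and 0.272 in proliferating libraries. Mthfd2 over Mthfd1 averaged 0.192 ± 0.0474 in quiescent and 0.261 ± 0.0189 in proliferating libraries (SD, n = 4 each), and the groups overlapped through quiescent replicate 2. Aldh1l2 over Aldh1l1 was 0.0156 to 0.0315 in quiescent libraries, against 0.00232 to 0.00317 in proliferating libraries.

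Within the virus groups the ratios moved less. Shmt2 over Shmt1 was 3.40, 3.40 and 3.93 in KO libraries, against 4.03, 4.38 and 4.45 in GFP control libraries, and Aldh1l2 over Aldh1l1 was 0.736, 0.811 and 0.651 in KO libraries, against 0.988, 1.06 and 0.912 in GFP control libraries. In TPM neither overlapped, and both were lower in KO libraries. The separation of Shmt2 over Shmt1 did not hold in CPM, where KO replicate 2 lay slightly above GFP control replicate 2. Its ratio in TPM includes the isoform split of Shmt1. Mthfd2 over Mthfd1 (0.850 to 1.20 in KO, 1.13 to 1.298 in GFP control libraries) and Mthfd1l over Mthfd1 (0.469 to 0.619 in KO, 0.598 to 0.663 in GFP control libraries) overlapped.

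**Figure D3:**
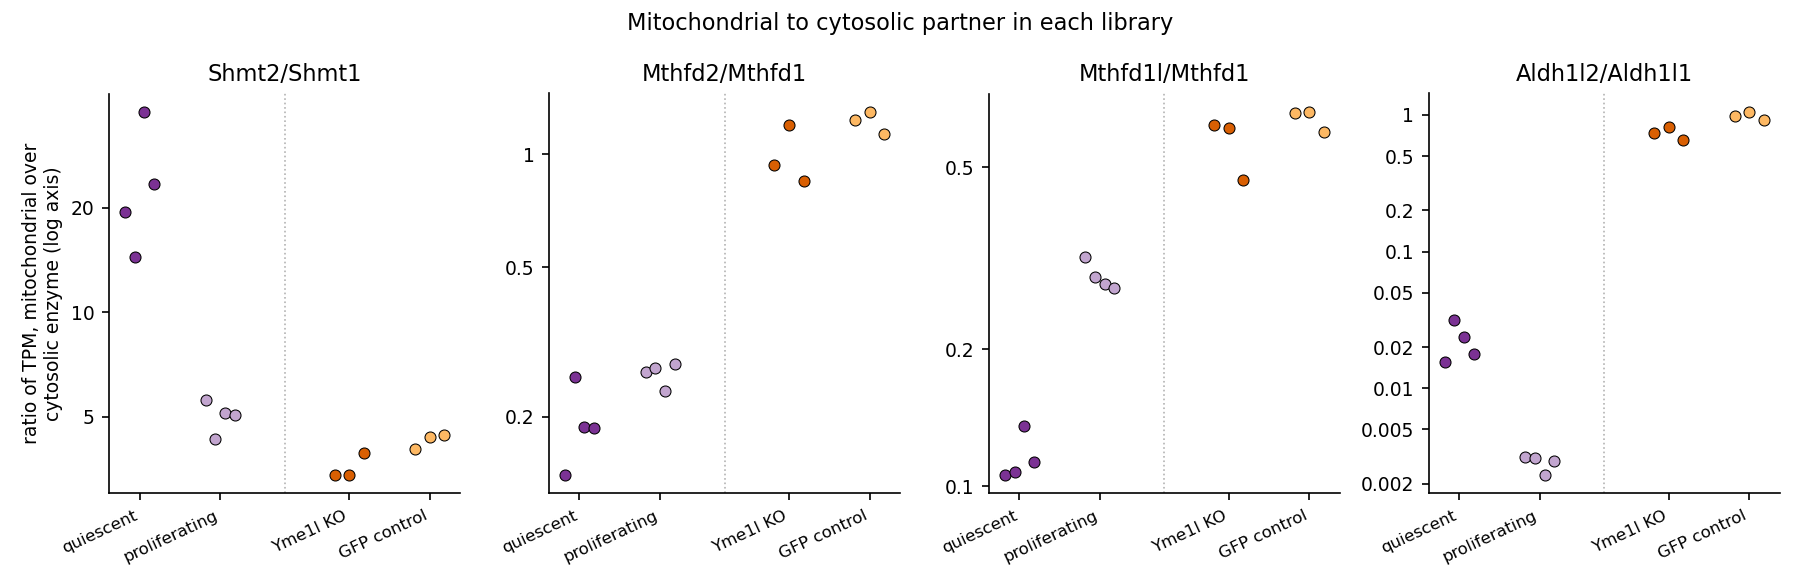
Ratio of TPM of the mitochondrial to the cytosolic enzyme (y axis, logarithmic, own scale in each panel) in every library of the 4 groups. Shmt2 over Shmt1 is 14.4 or more in quiescent libraries and 5.59 or less in all others, and Aldh1l2 over Aldh1l1 is 0.651 or more in the virus groups and at most 0.0315 in the others. The dotted line parts the tables, which were quantified separately and differ by the GC content of transcripts. The part of this in differences across the line was not tested.

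Most genes that feed carbon to the route fell with it. Of 13 tested genes of serine synthesis and one-carbon supply, 9 fell and 1 rose in quiescent cells (median log2 fold change -0.56, all genes -0.01), and 9 fell and 1 rose in KO cells (median -0.45, all genes 0.00). Over all tested genes, 35.5% fell and 29.9% rose in quiescent cells, and 26.2% fell and 25.4% rose in KO cells. Phgdh, the first enzyme of serine synthesis, averaged 419 ± 27.0 CPM in quiescent and 857 ± 22.1 CPM in proliferating cells (SD, n = 4 each; -1.03, adjusted p = 1.93e-11, edgeR), and 381 ± 36.0 CPM in KO and 525 ± 4.26 CPM in GFP control cells (SD, n = 3 each; -0.46, adjusted p = 2.65e-05, edgeR). Sfxn1, the mitochondrial serine carrier, changed by -0.85 in quiescent cells (adjusted p = 1.7e-08, edgeR) and by -0.45 in KO cells (adjusted p = 1.61e-05, edgeR). The deepest fall of the list in both was that of Slc1a5, a transporter of neutral amino acids, with -1.91 in quiescent and -1.31 in KO cells (adjusted p = 4.68e-10 and 0.000622, edgeR). The rises were those of Amt, a subunit of the glycine cleavage system, in quiescent cells (0.43, adjusted p = 2.17e-05, edgeR) and Pipox, which oxidises sarcosine, in KO cells (0.25, adjusted p = 0.00547, edgeR).

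The users of folate carbon split. Of 10 tested purine synthesis genes, 9 fell in each comparison (median -0.94 in quiescent and -0.55 in KO cells), where 35.5% and 26.2% of all tested genes fell. Gart and Atic, the enzymes that take formyl groups from folate, changed by -1.14 and -0.87 in quiescent cells (adjusted p = 2.44e-10 and 2.41e-09, edgeR) and by -0.75 and -0.76 in KO cells (adjusted p = 2.23e-06 and 1.81e-06, edgeR). Of 12 genes of thymidylate supply, 9 fell and 2 rose in quiescent cells (median -1.62), and 10 fell and 2 rose in KO cells (median -0.80). The shares of rises over all tested genes were 29.9% and 25.4%. Rrm2, the ribonucleotide reductase subunit of dividing cells, was lowest in this list in both (-3.52 and -1.19, adjusted p = 4.23e-14 and 0.00246, edgeR), while its relative Rrm2b rose (1.38 and 0.32, adjusted p = 0.0116 and 0.0129, edgeR). Rrm2b was a low gene in the first pair of groups, at 2.53 ± 1.32 CPM in quiescent and 0.976 ± 0.511 CPM in proliferating cells (SD).

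Of 9 tested genes of the methionine cycle, 3 rose and 3 fell in quiescent cells (median -0.12), where 29.9% of all tested genes rose and 35.5% fell, and 3 rose and 4 fell in KO cells (median -0.02), where 25.4% rose and 26.2% fell. With so few genes, these counts are near the shares over all genes. Mtr, methionine synthase, rose in quiescent cells (0.66, adjusted p = 0.000426, edgeR) and fell in KO cells (-0.33, adjusted p = 0.00356, edgeR). Its reductase Mtrr fell in quiescent cells (-1.05, adjusted p = 5.07e-06, edgeR). In KO cells the ends of the list were Cbs, which takes homocysteine out of the cycle (0.82, adjusted p = 7.42e-05, edgeR), and Ahcy, which forms it (-0.82, adjusted p = 4.5e-06, edgeR). For uptake, storage and reduction of folate, 2 of 9 tested genes rose and 3 fell in quiescent cells (median 0.00), likewise near those shares. In KO cells 0 of the 9 rose, 3 fell and 6 did not pass the test (median 0.01), where 25.4% of all tested genes rose and 26.2% fell. Slc19a1, the reduced folate carrier, was among the falls in quiescent (-0.28, adjusted p = 0.0185, edgeR) and KO cells (-0.70, adjusted p = 0.0271, edgeR), whereas Slc25a32, the mitochondrial folate carrier, passed the test in neither (0.34, adjusted p = 0.263, and -0.04, adjusted p = 0.831, edgeR). Slc19a1 was low in the virus groups, at 2.77 ± 0.650 CPM in KO and 4.50 ± 0.955 CPM in GFP control cells (SD). Slc25a32 was low in the first pair of groups, at 2.78 ± 0.308 CPM in quiescent and 2.19 ± 0.397 CPM in proliferating cells (SD). The highest called gene of this list was Mthfs in quiescent cells (0.69, adjusted p = 0.0128, edgeR). In KO cells the smallest called fall was that of Fpgs, which adds glutamates to folate (-0.49, adjusted p = 0.00178, edgeR).

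**Figure D4:**
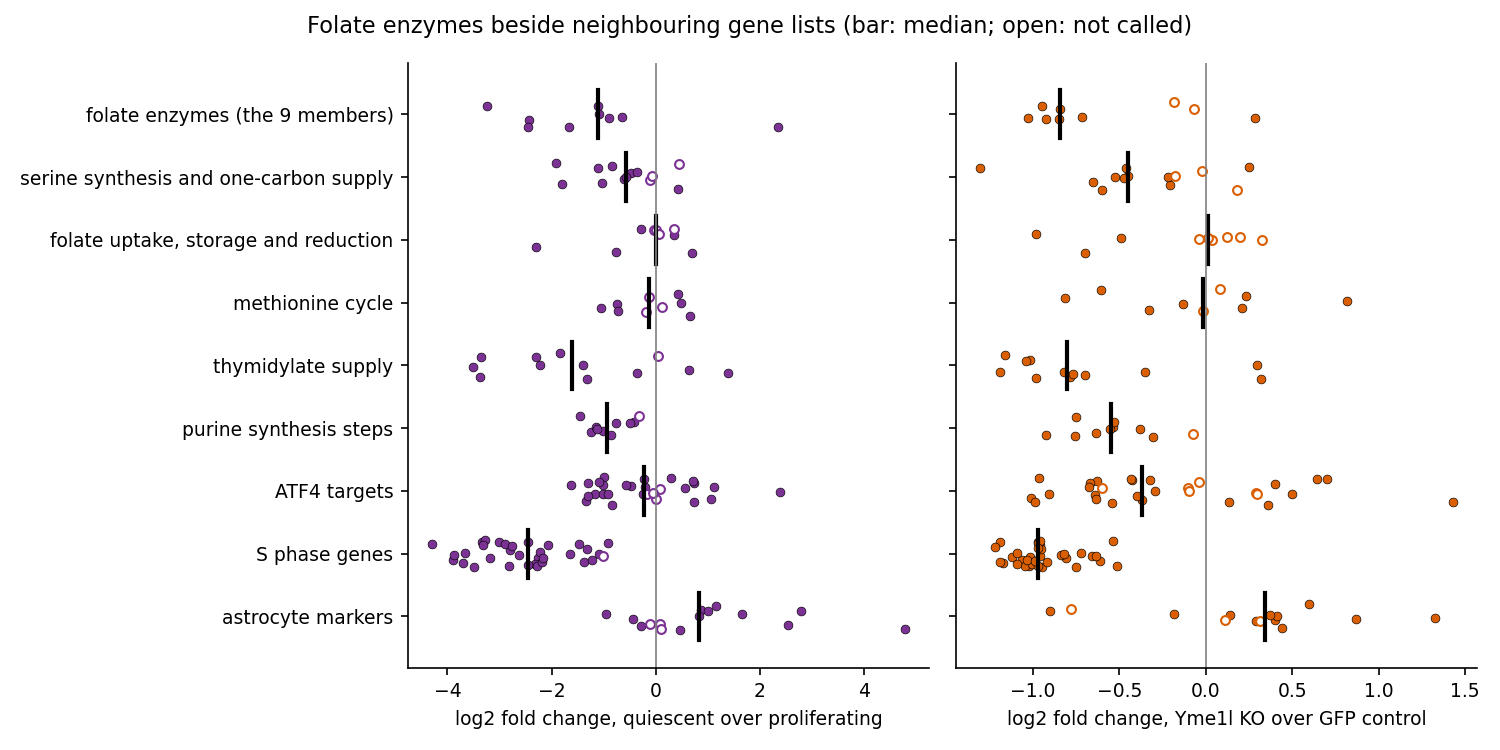
Log2 fold change (x axis) of the 9 folate enzymes and of 8 other gene lists in quiescent over proliferating cells (left) and Yme1l KO over GFP control cells (right, another scale). Each point is a gene, filled where the adjusted p was under 0.05, and bars are medians. The folate enzymes have medians of -1.11 and -0.84, and the S phase genes medians of -2.46 and -0.97.

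Genes of S phase moved with the folate enzymes. Of 33 tested, 32 fell in quiescent cells (median -2.46), and 34 of 34 fell in KO cells (median -0.97), with the largest falls in Cdc6 in quiescent cells (-4.30, adjusted p = 1.89e-12, edgeR) and Pold1 in KO cells (-1.22, adjusted p = 4.78e-05, edgeR). Over all tested genes, 35.5% fell in quiescent and 26.2% in KO cells. The part that the share of cycling cells has in the levels of the folate enzymes was not tested. Mthfd2, Mthfd1l, Shmt2, Aldh1l2 and the serine enzymes are known targets of ATF4, a transcription factor of the amino acid and mitochondrial stress responses. Of 28 other tested ATF4 targets, Atf4 included, 8 rose and 16 fell in quiescent cells (median -0.23), and of 29, 7 rose and 16 fell in KO cells (median -0.37). The rises are near the shares over all tested genes, 29.9% in quiescent and 25.4% in KO cells. Atf4 itself changed by -0.91 in quiescent (adjusted p = 6.18e-10, edgeR) and -0.43 in KO cells (adjusted p = 1.33e-05, edgeR). Asns, asparagine synthetase, changed by -0.99 in both (adjusted p = 6.43e-10 and 0.000885, edgeR). The list had opposite ends, with Cth the lowest in both (-1.63 and -1.01, adjusted p = 0.00033 and 0.000717, edgeR), and Slc7a5 highest in quiescent (2.39, adjusted p = 9.73e-16, edgeR) and Gdf15 in KO cells (1.43, adjusted p = 0.000334, edgeR). Cth was a low gene in the first pair of groups, at 1.18 ± 0.371 CPM in quiescent and 3.748 ± 1.005 CPM in proliferating cells (SD).

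Astrocyte markers were read beside Aldh1l1, which is not in their list. Of 15 tested, 9 rose and 3 fell in quiescent cells (median 0.83), and of 14, 9 rose and 2 fell in KO cells (median 0.34). Over all tested genes, 29.9% rose and 35.5% fell in quiescent cells, and 25.4% rose and 26.2% fell in KO cells. The summed level of all 16 was 7120 to 7410 TPM in quiescent, against 4980 to 5220 TPM in proliferating libraries, and 2810 to 3070 TPM in KO, against 2430 to 2490 TPM in GFP control libraries, with none at 0 in any group. Aldh1l1 thus moved against this sum in quiescent cells and with it in KO cells, and the part of astrocyte-like cells in its level was not tested. The ends of the list were Aqp4 (4.78, adjusted p = 1.07e-06, edgeR) and Fgfr3 (-0.95, adjusted p = 2.18e-11, edgeR) in quiescent cells, and Clu (1.33, adjusted p = 0.000229, edgeR) and Aldoc (-0.90, adjusted p = 1.68e-07, edgeR) in KO cells. Oligodendrocyte lineage markers summed to 2430 to 2600 TPM in quiescent, 3130 to 3410 in proliferating, 2430 to 2770 in KO and 1940 to 2070 in GFP control libraries, with Mog at 0 in every group. Neuron markers summed to 25.7 to 53.8 TPM in quiescent and 45.5 to 53.3 in proliferating libraries, and to 562 to 590 in KO and 554 to 613 in GFP control libraries, with Stmn2 at 0 in every group. Map2, at 1215 ± 32.2 CPM in KO and 1206 ± 49.8 CPM in GFP control cells (SD, n = 3 each), had by far the highest counts of these markers in the virus groups, where Dcx averaged 0.989 and 0.986 CPM and 6 of the 13 were too low to be tested. The sums of the microglia, vessel and ependyma lists were at most 13.4, 13.2 and 81.1 TPM, with C1qa, C1qb, Ptprc, Cldn5, Pdgfrb, Dcn and Tmem212 at 0 in all groups.

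The proliferating and GFP control cells were both kept in FGF and EGF, but levels differed widely between their tables. Proliferating over GFP control, Aldh1l1 stood at 5.05 and Aldh1l2 at -3.24 on the scale of log2 of CPM + 1, with 1581 ± 26.7 and 8.14 ± 1.29 CPM in proliferating (SD, n = 4) and 46.9 ± 1.34 and 85.4 ± 9.02 CPM in GFP control cells (SD, n = 3). Mthfd2 stood at -1.61, Mthfd2l at -1.84, and the other 5 between -0.56 and 0.57. Across 11464 genes this difference rose with the GC content of the transcripts (Pearson r = 0.713 across genes, which are not independent replicates), its median going from -2.73 in the decile of genes with the lowest GC to 0.97 in the highest. Aldh1l1 lay at percentile 99.7 of its own decile, whose median was 0.73, and Aldh1l2 at percentile 3.57 of its decile, whose median was -0.56. The effect of the virus and any other difference between the tables cannot be told apart, and no test was made.

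**Figure D5:**
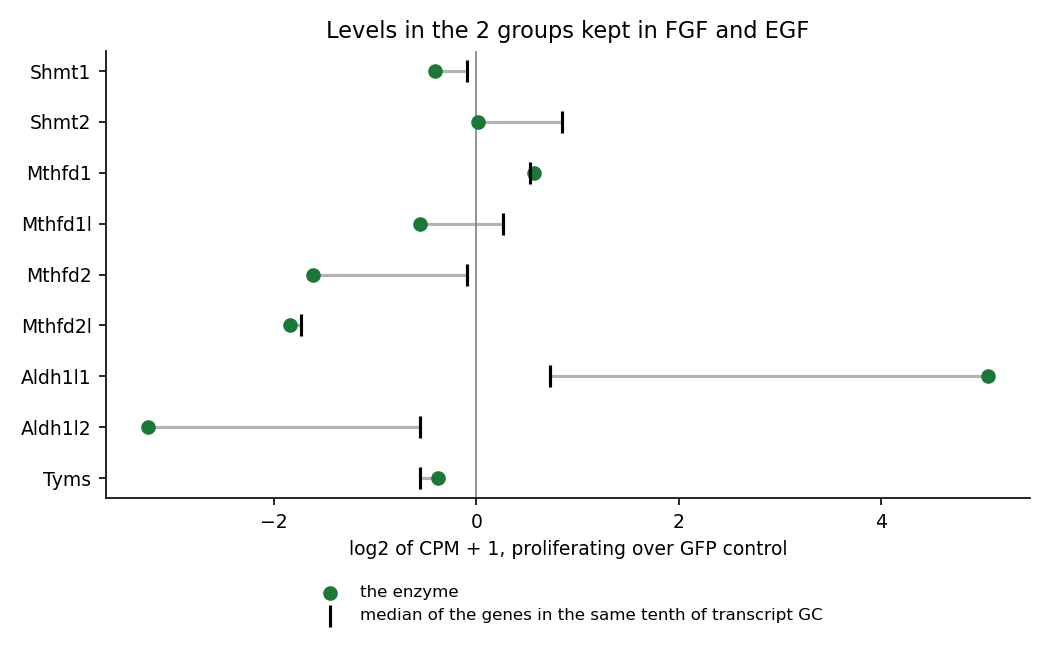
Difference in level (x axis, log2 of CPM + 1, proliferating over GFP control) of each folate enzyme, with the median of all genes in the same decile of transcript GC content as a black bar. Aldh1l1 is at 5.05 and Aldh1l2 at -3.24, both far from their bars at 0.73 and -0.56, while Mthfd1 and Mthfd2l are close to theirs.

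The genes whose pattern over the 14 libraries was most like each enzyme were taken by the smallest root mean square difference in log2 CPM, each table centred on its own proliferating or GFP control mean, among 8950 genes. For Tyms the nearest was another folate enzyme, Mthfd1l (0.111), followed by Pmf1 (0.111), and Pmf1 was also nearest to Mthfd1l (0.0675), followed by Tcf19 (0.111). Shmt1 had Sema5b (0.0955) and the replication helicase subunit Mcm3 (0.135). For Shmt2, Fam83d (0.104) was among them. Mthfd1 had the arginine methyltransferase Prmt5 (0.0610) and Aarsd1 (0.0616). Mthfd2 had Tnc (0.109), which encodes the matrix protein tenascin C, and Ctps (0.114), and Mthfd2l had Uhrf2 (0.143) and Ap4m1 (0.157). Aldh1l1 had Ccdc102a (0.0543) and Cirbp (0.0554), the cold-inducible RNA-binding protein, and Aldh1l2 had Cadps (0.124) and Osgin2 (0.140). Because neighbours were picked by pattern, their fold changes follow that of the enzyme by construction. In quiescent cells Cadps changed by 2.24 and Osgin2 by 2.41.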

How the data were processed

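RNA-seq tables of 14 NSPC libraries were used. The authors deposited salmon estimated counts per gene and transcript (expected counts), length-scaled estimated counts and TPM. Their deposited comparison tables hold log2 fold changes, adjusted p-values, mean normalised signal and standard errors (a score per gene), of which only log2 fold changes and adjusted p-values are quoted. Per the submitters' processing notes the build was GRCm39, with DESeq2 1.30.1 in R 4.0.3, and the salmon version is not given in the sources used here. The kit is stranded and poly-A selected, per the labels' protocols, so that transcripts without poly-A are under-represented.

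Gene counts were rounded, filtered (filterByExpr), TMM-normalised and tested within each table with edgeR 4.0.16 (robust quasi-likelihood fit, R 4.3.3, limma 3.58.1), adjusted by Benjamini-Hochberg over all tested genes. CPM use TMM-adjusted library sizes. Standard errors were obtained by dividing the size of the log2 fold change by the root of its F statistic. The difference of the fold changes was a contrast over all 14 libraries. The fit was tested on simulated data. Low counts widen the error, and reads carry no molecular identifiers.

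The 9 members and all gene lists were chosen with earlier results of these data known. From each list the genes with the highest and lowest called fold change were named, plus up to 2 on the same folate step, and for each enzyme the 2 most similar genes. Atf4, Asns, Vim, Map2 and Dcx, and Fabp7 in KO cells, were added after their values were seen. Same-numbered replicates did not vary together, and the replicate block is given with the alternatives: RLE factors, no factors (library size alone), limma on log2 of TPM + 1 or + 0.1, DESeq2 1.42.0, other filters, length-scaled counts, all libraries in one fit, single libraries left out and, chosen after seeing the data, GC trends removed. Transcript GC content covered 99.9% of tested genes. Protein sequences and the Aldh1l2 promoter were not used here. Some genes that the naming rule selects are not reported here.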

Additional observations from a re-analysis of the deposited data

Results flagged for a closer look

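In 2 groups of 4 libraries, 1 library lay far from the other 3 by Dixon's criterion, which chance meets in about 1 in 20 groups. Each of the 9 enzymes has 2 groups of 4 libraries, so that such libraries can be met by chance. The highest quiescent library of Mthfd1 had 100.5 CPM, against 92.5 to 93.7 CPM in the other 3. The highest proliferating library of Mthfd2l had 6.43 CPM, against 4.99 to 5.17 CPM in the other 3.

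For 8 enzymes the fold change in KO over GFP control cells differed from that in quiescent over proliferating cells by the edgeR test of the difference itself. Of all tested genes, 38.9% were called in this test. The calls for Mthfd1 and Mthfd2l did not hold under RLE normalisation, and that for Mthfd2l also failed without some single libraries. The KO effect minus the quiescence effect (log2) was 2.33 for Shmt1, 1.54 for Mthfd1l, 1.48 for Tyms, 0.87 for Aldh1l1, 0.66 for Mthfd2, 0.66 for Mthfd2l, 0.33 for Mthfd1 and -2.47 for Aldh1l2. The comparisons come from tables quantified separately, and what part the tables have in these differences was not tested.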

How the results depend on the processing

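The 8 falls and 1 rise among the folate enzymes in quiescent cells, and the 6 falls and 1 rise in KO cells, were called under every alternative run without a fold threshold, including each library left out (8 and 1, 6 and 1). With a threshold of 2-fold, quiescent cells had 1239 genes higher and 1295 lower, and KO cells 399 and 261, where 0 enzymes were higher and 1 lower. Leaving out single libraries gave 3379 to 4086 genes higher and 3738 to 4197 lower in quiescent cells, and 2683 to 3122 higher and 2884 to 3284 lower in KO cells. With library size alone, 2823 genes were higher and 5219 lower in quiescent cells, against 3664 and 4346 with TMM, and the median of all genes moved to -0.151. Values whose interval included 0 changed sign: in KO cells Mthfd2l with limma on TPM (0.00594 with a pseudocount of 1, 0.00635 with 0.1), and Aldh1l2 without KO replicate 3 (0.0143) or GFP control replicate 2 (0.00249), in a range of -0.149 to 0.0143 over single libraries left out. The difference of the fold changes of Shmt2 turned to -0.0733 with RLE factors, and to -0.0614 to -0.0152 without quiescent replicate 2, KO replicate 1, KO replicate 2 or GFP control replicate 2 (range over all left out -0.0614 to 0.179). The cause was not tested. Same-numbered replicates correlated at -0.33 to -0.00828 (quiescent and proliferating) and -0.0582 to 0.000377 (KO and GFP control), so that the numbers do not pair the libraries. The replicate block kept only replicate numbers present in both groups, so that quiescent replicate 3 and proliferating replicate 5 were left out. With this block, quiescent cells had 2844 genes higher and 3686 lower, and KO cells 3063 and 3189, with 8 and 1 and 6 and 1 enzymes. Low depth limits Shmt1, Mthfd2l and Tyms most in quiescent cells.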
